A study of Gallus gallus with 6 samples.

Results

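The miRNAs miR-15, miR-16, miR-103 and miR-107 were followed through small RNA libraries of the developing chick heart. The libraries, named CHL1 to CHL6 in the labels, were made from whole hearts of Gallus gallus embryos at days 4, 6, 8, 10, 12 and 14 of incubation, which in the labels are the Hamburger-Hamilton (HH) stages HH24 and HH29 for days 4 and 6, HH34 and HH36 for days 8 and 10, and HH38 and HH40 for days 12 and 14. All embryos came from fertilized eggs kept in the same incubator conditions with no treatment, and the RNA of each stage was described as a pool with no number of hearts. There was 1 library per stage, so no test was run between stages and every interval below covers counting error only. PCR reads without molecular identifiers are not independent molecules, and fewer cells of a type cannot be told apart from less RNA per cell.

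Members were the lines of the deposited known miRNA lists that carry the number of miR-15, miR-16, miR-103 or miR-107 in their name, together with lines of the list of sequences without a miRBase name whose mature interval overlapped such a line by at least 15 nt on the same strand. They numbered 34 lines (31 known and 3 others) of 1195 in all, 13 distinct mature sequences of 830, and 8 genomic loci of 691. The known lines were named mir-107mir-103 (11 lines), mir-15 (9), mir-16 (6), mir-107 (3) and mir-103 (2) as deposited. A locus here is a mature sequence position, and a sequence with several loci was counted once per library.

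Small RNAs of these families are transcribed as hairpins, cut by Drosha and Dicer to a short duplex, and loaded as a single strand into Argonaute, where the seed (bases 2 to 8) pairs with messenger RNAs. miR-15 and miR-16 are encoded side by side and are known from mammals to repress cyclins, cyclin-dependent kinases and the survival factor BCL2, and in the mouse heart members of the miR-15 family are linked to the withdrawal of cardiomyocytes from the cell cycle after birth. miR-103 and miR-107 lie within pantothenate kinase genes, whose products start coenzyme A synthesis, and are known in mammals for effects on lipid and insulin metabolism, on DICER1 and on CDK6.

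The 13 mature sequences are shown because length and a few bases separate the close members. They are written 5′ to 3′ as DNA letters as deposited, with the seed in capitals.
miR-103, 23 nt (days 4, 6, 8 and 12): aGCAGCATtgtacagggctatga
miR-103, 22 nt (day 14): aGCAGCATtgtacagggctatg
miR-103 or miR-107, 21 nt (day 10): aGCAGCATtgtacagggctat
miR-107, 22 nt (days 6 and 12): aGCAGCATtgtacagggctatc
miR-107, 23 nt (day 8): aGCAGCATtgtacagggctatca
miR-15a, 22 nt (day 6): tAGCAGCAcataatggtttgtg
miR-15a, 23 nt (day 8): tAGCAGCAcataatggtttgtgg
miR-15a, 21 nt (day 12): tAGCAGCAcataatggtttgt
miR-15b, 21 nt (days 6 and 12): tAGCAGCAcatcatggtttgc
miR-15c, 22 nt (days 6, 8, 12 and 14): tAGCAGCAcatcatggtttgta
miR-15c, 21 nt (day 10): tAGCAGCAcatcatggtttgt
miR-16, 22 nt (days 6, 12 and 14): tAGCAGCAcgtaaatattggtg
miR-16, 23 nt (day 8): tAGCAGCAcgtaaatattggtgt
All 8 sequences of miR-15 and miR-16 had the seed AGCAGCA. All 5 sequences of miR-103 and miR-107 had the seed GCAGCAT, and carried the same 7 letters AGCAGCA from base 1 to base 7, so the shared run sits 1 base nearer the 5′ end. None of the other 817 distinct mature sequences of the 6 libraries began with AGCAGCA at base 1 or base 2, and 0 of 8 other miRNA names looked for as carrying AGCAGC from base 2 to base 7 (miR-195, miR-424, miR-322, miR-457, miR-497, miR-503, miR-646 and miR-1643) were listed in any library.

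The deposited names do not number the copies, so the loci were named by chromosome from the RefSeq annotation of the GRCg7b assembly, and the positions below are those of the deposited lists on the Gallus gallus v.2.1 genome. miR-103 was listed at chr13:4449289-4449311 on the plus strand (miR-103-1, within the span of PANK3) and at chr4:91906899-91906921 on the minus strand (miR-103-2, within PANK2), and miR-107 at chr6:20487973-20487995 on the minus strand (within PANK1). miR-15a and miR-16-1 were at chr1:173700540-173700562 and chr1:173700399-173700421, their 5′ ends 141 nt apart, in a long noncoding RNA gene (LOC124417627). miR-15b and miR-16-2 were at chr9:23743018-23743038 and chr9:23742846-23742868, 170 nt apart, in SMC4, which encodes a condensin subunit that compacts mitotic chromosomes. miR-15c was at chr4:4049099-4049120, in the protein-coding gene LOC101749419. These 5 loci are on the minus strand. RefSeq places a further copy of miR-16 (MIR16C) in the same gene as miR-15c, and no line of miR-16 was listed on chromosome 4.

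The listed sequences of all 8 loci kept 1 5′ end in every library, and only their 3′ end varied, between 21 and 23 nt. Each library listed 1 sequence per locus, so reads with a shifted 5′ end would not show in these lists. miR-103 and miR-107, and miR-15c and miR-15b, differed only near the 3′ end, whereas miR-15c differed from miR-15a and miR-16 further inside as well. With positions counted from 1 at the 5′ end, miR-103 and miR-107 differed at 1 of 23 bases (G22C, miR-103 first). miR-15c and miR-15b differed at 1 of 21 bases (T21C), miR-15c and miR-15a at 2 of 22 (C12A and A22G), and miR-15c and miR-16 at 7 of 22. The 21 nt sequence of day 10 ends before base 22, so the 3 loci of miR-103 and miR-107 shared its reads and could not be told apart there.

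The known lists of days 8, 10 and 14 held mainly 1 length, and the lengths listed bear on every level below. Sequences of 22 nt made up 55.9%, 55.4%, 55.3% and 92.7% of the known sequences on days 4, 6, 12 and 14, those of 23 nt made up 88.2% on day 8, and those of 21 nt made up 93.4% on day 10. The reads behind the deposited values in RPM (reads scaled to a fixed library total) were between 228290 (day 14) and 37495805 (day 12), and over days 4 to 12 they were between 11.1% (day 4) and 95.0% (day 6) of the clean reads. No such share is given for day 14, where the study's number and percent of clean reads do not match. The lowest abundance listed was 2 reads on day 10 and 6 reads elsewhere, so that the lowest level listed was 2.15 RPM on day 4, 0.160 RPM on day 12 and 26.3 RPM on day 14. Of 5 heart and striated muscle miRNAs, miR-133 was listed on 5 days, miR-206 on days 6 and 12 and miR-499 on day 10, while miR-1 and miR-208 were listed on no day.

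miR-103/miR-107 was listed at all 6 stages and was highest in RPM on day 8. The family stood at 42.6, 1640.3, 5556, 741, 759 and 65.7 RPM on days 4, 6, 8, 10, 12 and 14. The day 14 and day 4 values came from 15 and 119 reads, with exact Poisson intervals of 36.8 to 108 RPM on day 14 and 35.3 to 51.0 RPM on day 4, which overlap. Among the known families of each library it ranked 9th of 27, 12th of 87, 6th of 38, 17th of 66, 17th of 94 and 26th of 30 in the order of the days.

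miR-103 itself, the sequence of PANK2 and PANK3, had 119, 12792, 28248 and 24389 reads of its 23 nt form on days 4, 6, 8 and 12, which were 42.6, 1383, 5054 and 650.4 RPM. On day 14 it was listed at 22 nt with 15 reads. miR-107, of PANK1, had 2375, 2802 and 4083 reads (257, 501 and 109 RPM) on days 6, 8 and 12, and was not listed alone on days 4, 10 and 14. miR-103 exceeded miR-107 in each library that listed both. The ratio of miR-103 to miR-107 on days 6, 8 and 12 was 5.39 (95% interval 5.15 to 5.63), 10.1 (9.70 to 10.5) and 5.97 (5.78 to 6.18). On days 6 and 12 the ratio set a 23 nt form over a 22 nt form, and on day 8 both were 23 nt, so these ratios do not rest on the same forms.

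miR-15 was listed at 5 stages and was highest in RPM on day 10. The family stood at 251, 11.1, 659, 231 and 48.2 RPM on days 6, 8, 10, 12 and 14, and was not listed on day 4. The value of day 10 was miR-15c alone, with 2258 reads of a 21 nt form, and that of day 14 was miR-15c alone with 11 reads (24.1 to 86.2 RPM). miR-15c was thus the member listed at most stages, on 5 days, while miR-15a was listed on 3 and miR-15b on 2.

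The miR-15 loci differed in their course. miR-15b had the same 21 nt form on both days, with 52.1 RPM on day 12 and 50.9 RPM on day 6. miR-15c had the same 22 nt form, with 76.8 RPM on day 12 and 143.7 RPM on day 6. miR-15a had 102 RPM on day 12 as a 21 nt form and 56.5 RPM on day 6 as a 22 nt form. The order of the 3 was thus miR-15a, miR-15c, miR-15b on day 12 and miR-15c, miR-15a, miR-15b on day 6. On day 12 the intervals of the 3 loci did not overlap, and on day 6 those of miR-15a (51.7 to 61.5 RPM) and miR-15b (46.4 to 55.8 RPM) did. On day 8, where the lists held few sequences other than 23 nt, miR-15a had 40 reads (7.16 RPM, 5.11 to 9.75) in the list without miRBase names and miR-15c had 22 reads (3.94 RPM, 2.47 to 5.96).

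miR-16 was listed at 4 stages, on day 8 only through a 23 nt sequence without a miRBase name. It had 5361, 5635, 18877 and 40 reads on days 6, 8, 12 and 14, which were 579.8, 1008, 503 and 175 RPM, the last with an interval of 125 to 239 RPM. It was not listed on days 4 and 10. The expression list of day 10 likewise held 4 lines of the member names, none of them miR-16. On day 8 the 23 nt form carried 1 base more at its 3′ end than the 22 nt form of days 6, 12 and 14, at the same 5′ end.

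**Figure D1:**
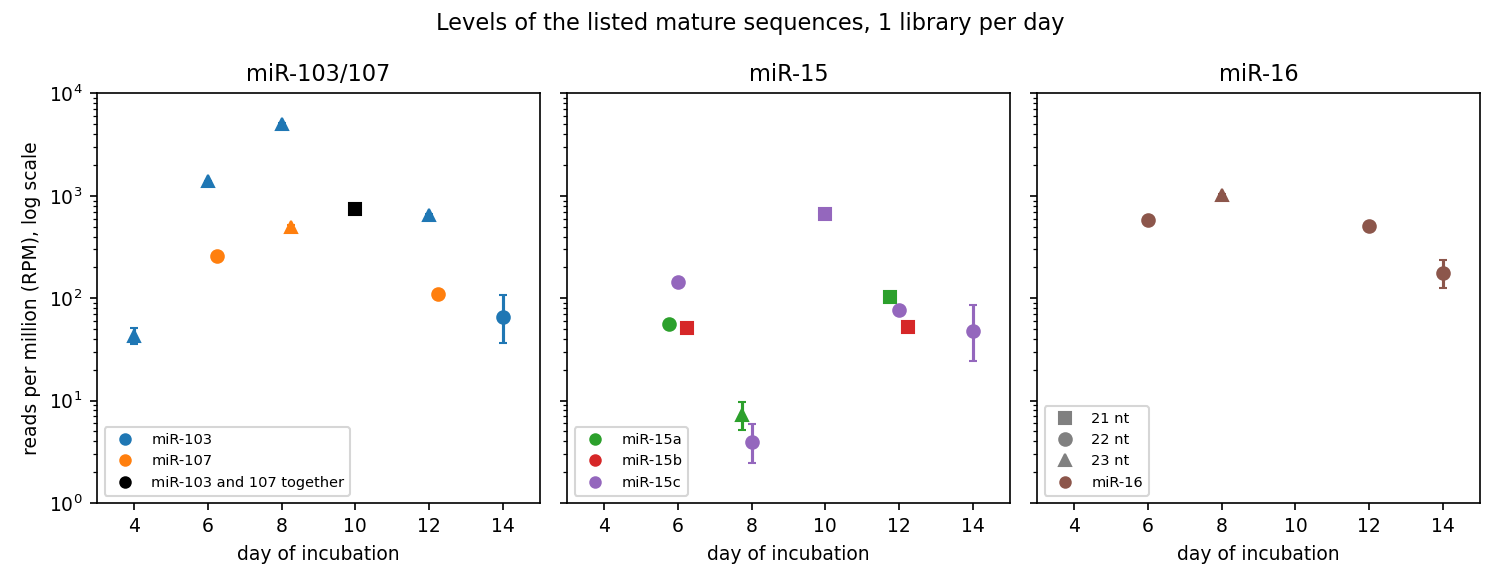
Levels of the listed mature sequences of miR-103/miR-107, miR-15 and miR-16 in RPM on a log axis against the day of incubation, 1 library per day. Each point is 1 sequence with its exact 95% Poisson interval, colours mark the member and shapes the length (square 21 nt, circle 22 nt, triangle 23 nt). miR-103 ranges between 42.6 RPM on day 4 and 5054 RPM on day 8, miR-15c is highest on day 10 at 659 RPM as a 21 nt form, and miR-16 is highest on day 8 at 1008 RPM as a 23 nt form.

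The day of the highest level depended on the scale used. In the share of known miRNA reads, miR-103/miR-107 took 0.699%, 0.461%, 3.69%, 0.146%, 0.372% and 0.0940% on days 4 to 14, again highest on day 8 and lowest on day 14 rather than on day 4. In the same share miR-15 was highest on day 10 (0.130%). On that day known reads were 50.7% of the reads behind RPM, with miR-499 at 207723 RPM and miR-126 at 203858 RPM. The part of these 2 miRNAs in the day 10 shares was not tested. miR-16 took 0.163%, 0.246% and 0.251% on days 6, 12 and 14, the last from 40 reads. On day 8 the miR-16 reads equalled 0.669% of the known reads. They came only from the list without miRBase names, so they were not part of that total. Scaled to the clean reads, with the study's number for day 14 as printed, all 3 families were highest on day 6, at 1559 RPM of clean reads for miR-103/miR-107, 239 for miR-15 and 550.9 for miR-16. The part of the listed lengths in these levels was not tested.

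The members together had 119, 22850, 36747, 4798, 56015 and 66 reads on days 4, 6, 8, 10, 12 and 14. miR-103/miR-107 made up all of the member reads on day 4, and on days 6, 8, 10, 12 and 14 it made up 66.4% (Clopper-Pearson interval 65.8% to 67.0%), 84.5% (84.1% to 84.9%), 52.9% (51.5% to 54.4%), 50.8% (50.4% to 51.2%) and 22.7% (13.3% to 34.7%). miR-16 held 23.5% of the member reads (22.9% to 24.0%), 15.3% (15.0% to 15.7%), 33.7% (33.3% to 34.1%) and 60.6% (47.8% to 72.4%) on days 6, 8, 12 and 14. These shares do not depend on the library total, but do depend on which lengths were listed.

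**Figure D2:**
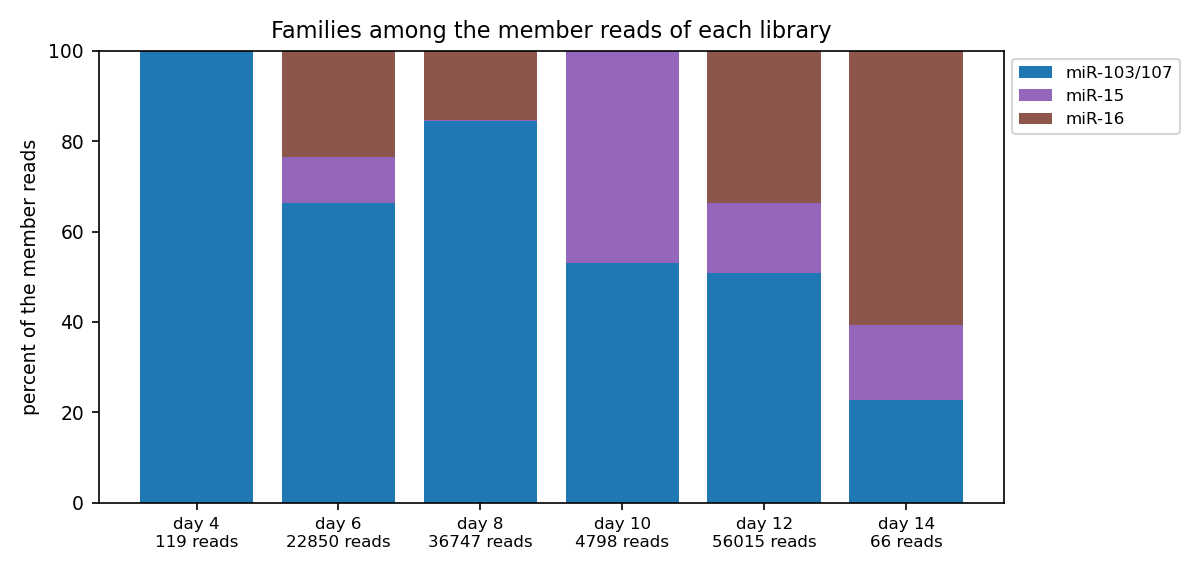
Share of the member reads of each library taken by miR-103/miR-107, miR-15 and miR-16, in percent, with the number of member reads below each bar. miR-103/miR-107 holds 22.7% of 66 reads on day 14 and 100% of 119 reads on day 4, and miR-16 holds 60.6% on day 14.

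Days 12 and 6 were set against each other, as the lists of both held sequences of 21 to 24 nt and all 8 loci. miR-103/miR-107 was at 759 RPM on day 12 and 1640.3 RPM on day 6, a log2 ratio of -1.11 (95% interval -1.14 to -1.08). The miR-15 family was at 231 RPM on day 12 and 251 RPM on day 6, a log2 ratio of -0.12 (-0.19 to -0.05). miR-16 was at 503 RPM on day 12 and 579.8 RPM on day 6, a log2 ratio of -0.20 (-0.25 to -0.16). One family of 3 was thus past a 2-fold difference, toward lower on day 12. From 22 nt sequences alone miR-15 was also past it, at -1.38, since its 21 nt forms are then left out, and from its highest single sequence it gave -0.49. Of the 74 known families listed on both days, 52.7% were more than 2-fold lower on day 12, 17.6% more than 2-fold higher and 70.3% past 2-fold in either direction, and their median log2 ratio was -1.17. miR-103/miR-107 lay at rank 38 of the 74 counted from the lowest ratio, near that median, and miR-16 and miR-15 at ranks 48 and 50. In the share of known reads the ratios were -0.31 for miR-103/miR-107, 0.68 for miR-15 and 0.60 for miR-16, against a median of -0.37 over the 74 families, so that miR-15 and miR-16 were lower on day 12 in RPM and higher on day 12 in this share. None of the 3 families was past 2-fold in this share, in which 29.7% of the 74 were more than 2-fold higher on day 12, 35.1% more than 2-fold lower and 64.9% past 2-fold in either direction. miR-10 alone held 2403702 of the 3287963 known reads on day 6 and 1027513 of the 7660483 on day 12. Both totals enter every ratio in this share, and the part of miR-10 in these ratios and their signs was not tested.

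Within the families, the single sequences listed at the same length on both days gave log2 ratios, day 12 over day 6, of -1.09 for miR-103 (95% interval -1.12 to -1.06), -1.24 for miR-107 (-1.31 to -1.16), -0.90 for miR-15c (-0.999 to -0.810), 0.03 for miR-15b (-0.11 to 0.18) and -0.20 for miR-16. The intervals of miR-103 and miR-107 did not overlap each other, nor did those of miR-15b and miR-15c. miR-15a gave 0.86 (0.72 to 0.99), between a 21 nt form on day 12 and a 22 nt form on day 6. With 1 library on each day the spread between hearts is unknown, and whether these intervals would hold between embryos was not tested.

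Within the clusters, miR-16 exceeded the miR-15 members encoded beside it. The reads of miR-16 over those of miR-15a and miR-15b together were 5.40 (95% interval 5.04 to 5.78), 140.9 (103.3 to 197.4) and 3.26 (3.17 to 3.36) on days 6, 8 and 12. On day 8 miR-15b was not listed and both miR-16 and miR-15a were 23 nt forms without a miRBase name. On days 6 and 12 miR-16 was a 22 nt form and miR-15b a 21 nt form. miR-15a was a 22 nt form on day 6 and a 21 nt form on day 12, so the ratios with miR-15a do not rest on the same forms. miR-15a over miR-15b was 1.96 on day 12 (1.86 to 2.07) and 1.11 on day 6 (0.977 to 1.26). The miR-103/miR-107 reads over those of miR-15 and miR-16 together were 1.97, 5.45, 1.12, 1.03 and 0.294 on days 6, 8, 10, 12 and 14, the last from 15 against 51 reads (0.154 to 0.531).

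**Figure D3:**
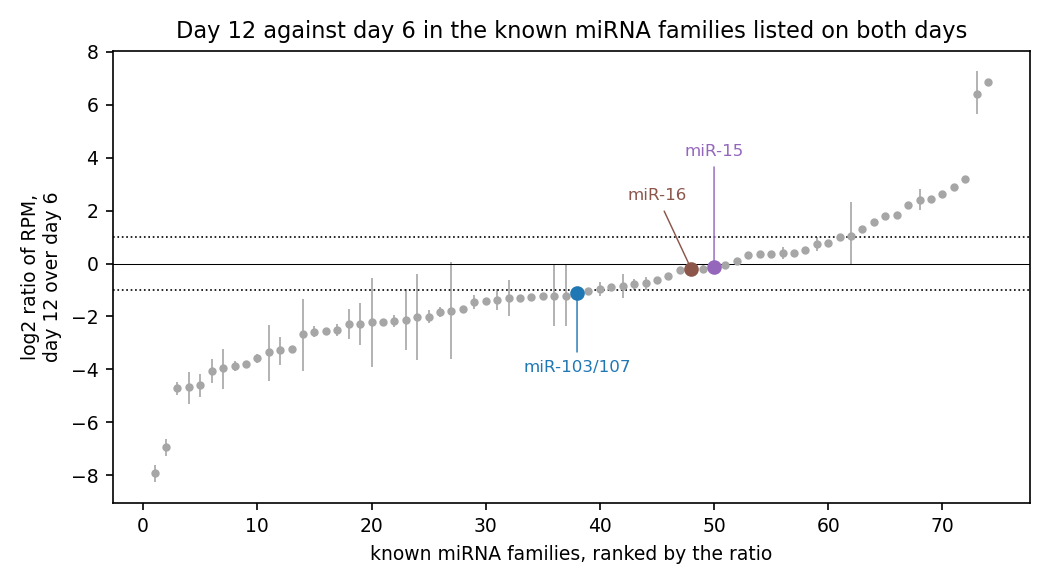
Log2 ratio of RPM, day 12 over day 6, of the 74 known miRNA families listed on both days, ranked along the horizontal axis, with the exact 95% counting interval of each. Dotted lines mark a 2-fold difference. miR-103/miR-107 lies at -1.11 just past the lower line, and miR-16 (-0.20) and miR-15 (-0.12) lie between the lines.

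The mature sequences of miR-103 and of miR-16 come from a pair of loci each, and their counts cannot be split. The opposite arm of the hairpin, from which few reads remain, differs between the loci, and is shown here because it is the only part of the lists that separates them. None of the 35 listed opposite-arm entries (20 distinct sequences) occurs in the hairpin of another member. The commonest 1 for each locus was as follows, in lower case, as deposited.
miR-103-2 opposite arm, 23 nt: agcttctttacagtgctgccttg
miR-103-1 opposite arm, 23 nt: ggcttctttacagtgctgccttg
miR-107 opposite arm, 23 nt: agcttctttacagtgttgccttg
miR-16-2 opposite arm, 21 nt: cccaatattattgtgctgctt
miR-16-1 opposite arm, 23 nt: ccagtattaactgtgctgctgaa
miR-15c opposite arm, 22 nt: tacagaccattctgggctgcct

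For miR-103 the opposite-arm reads were more numerous at miR-103-2, in PANK2, than at miR-103-1, in PANK3, in each of the 4 libraries that listed any. The listed opposite arms of both loci differ in sequence only at their first base, so this split rests on that base. The miR-103-2 locus had 9, 5, 6 and 37 reads on days 6, 8, 10 and 12, and the miR-103-1 locus 2, 3, 1 and 1. The share of miR-103-2 on the same days was 81.8% (Clopper-Pearson interval 48.2% to 97.7%), 62.5% (24.5% to 91.5%), 85.7% (42.1% to 99.6%) and 97.4% (86.2% to 99.9%), so that only on day 12 did the counting interval lie above an even split. The miR-107 opposite arm had 23, 28, 13 and 30 reads on the same days. It was 0.959%, 0.989% and 0.729% of the listed reads of both arms of miR-107 on days 6, 8 and 12. These shares set all listed opposite-arm lengths beside 1 mature length, 22 nt on days 6 and 12 and 23 nt on day 8. The opposite arm of either miR-103 locus was at most 0.151% of the reads set beside the shared miR-103 sequence on days 6, 8 and 12. The 30 opposite-arm reads of miR-107 on day 12 thus stood beside 4083 mature reads, while the 38 of the miR-103 loci stood beside 24389.

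For miR-16 the opposite arm was mostly that of miR-16-2, in SMC4, on days 6 and 12. It had 126 reads on day 12 and 30 on day 6, against 7 and 2 of miR-16-1, which is a share of 94.7% on day 12 (89.5% to 97.9%) and 93.8% on day 6 (79.2% to 99.2%). On day 8 the miR-16-1 arm had 6 reads and the miR-16-2 arm none (0%, up to 45.9%). The day 8 entries are 23 nt, and of the miR-16-2 arm 9 of 126 reads on day 12 and 1 of 30 on day 6 were 23 nt, whereas 5 of the 7 reads of miR-16-1 on day 12 were. How far length set the day 8 split was not tested. The miR-15c opposite arm had 3 reads on day 12 and 1 on day 6. miR-15a and miR-15b had none listed on any day. For miR-15a, 3 reads, taken as the limit that a count of 0 allows, would be 0.0782% of its 3834 reads on day 12, and lengths that were not listed are not covered by this limit. The longest listed hairpin of miR-15a (59 nt) begins just before its mature sequence, and that of miR-15b (57 nt) begins with it. Opposite-arm reads that run past the listed hairpin may not be covered either. No limit is given for miR-15b.

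**Figure D4:**
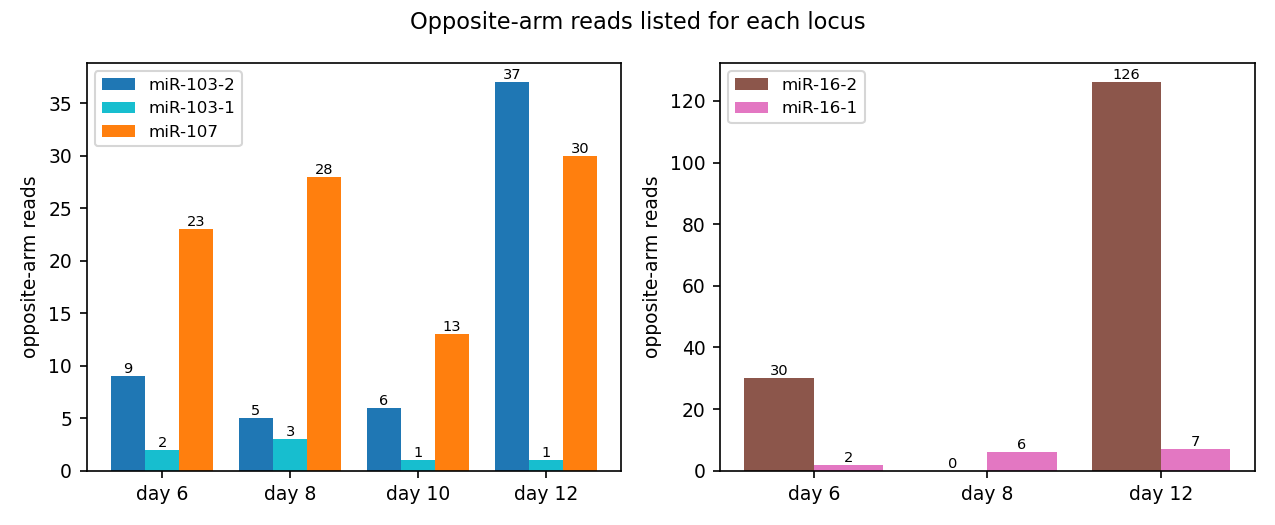
Opposite-arm reads listed for each locus of miR-103 and miR-107 (left, days 6, 8, 10 and 12) and of miR-16 (right, days 6, 8 and 12), as counts per library. miR-103-2 exceeds miR-103-1 on each day shown, with 37 against 1 reads on day 12, and miR-16-2 exceeds miR-16-1 on days 6 and 12 but has 0 reads on day 8.

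The hairpins of the members had a weaker median folding energy than the other known hairpins. Over 14 distinct listed hairpins of the members the deposited folding energy had a median of -27.1 kcal/mol and ranged between -37.9 and -21.4, against a median of -32.7 kcal/mol over the 251 other known hairpins, which ranged between -56.6 and -17.8. The G and C content was like the rest, with a median of 46.2% in the members and 46.0% in the others. No test was run, as several of the 14 are versions of the same locus, and the lengths of the hairpins were not matched. The mature sequence lies on the 3′ arm of the miR-103 and miR-107 hairpins and on the 5′ arm of those of miR-15 and miR-16.

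In the levels as listed, the 3 families did not share 1 course over the libraries. In log2(RPM + 1), with 0 where a family was not listed, Pearson's r over the 6 libraries was 0.55 between miR-103/miR-107 and miR-16, 0.43 between miR-103/miR-107 and miR-15 and 0.21 between miR-15 and miR-16. These points share library depth and the lengths listed. A 0, such as that of miR-16 on day 10, can stand for a form that the list did not hold. How far the r values rest on such 0s was not tested. Of the 39 other known families listed in at least 4 libraries, the nearest to miR-103/miR-107 were miR-138 (r = 0.99), miR-200 (0.98) and miR-137 (0.95), against a median r of 0.41 over the 39. miR-138, a miRNA that shapes cardiac chambers in zebrafish, was at 289.7, 1427, 152 and 116 RPM on days 6, 8, 10 and 12 and was not listed on days 4 and 14. The nearest to miR-15 were miR-101 (0.94), miR-2188 (0.94) and the muscle miRNA miR-133 (0.93), with a median of 0.54. The nearest to miR-16 were miR-146 (0.98), miR-19 (0.96) and miR-205 (0.88), with a median of 0.37. The 39 families were counted from the known lists only, whereas the day 8 level of miR-16 came from the other list. From the known lists alone, in which miR-16 counts as 0 on day 8, the r of miR-146, miR-19 and miR-205 was 0.56, 0.61 and 0.64, against a median of 0.44. That 0 stands in place of a listed level, so how far the likeness to miR-16 rests on day 8 was not tested.

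Several of these are markers of other cell types. The epithelial list, of which 4 of 5 were listed and miR-141 on no day, summed to between 4.65 RPM on day 4 and 1095 RPM on day 6. The neural list, of which 4 of 5 were listed and miR-219 on no day, summed to 7.16, 1042, 854, 1957 and 215 RPM on days 4 to 12 and was not listed on day 14. The white blood cell list, of which 3 of 4 were listed, summed to 4.65, 2002, 8386, 2866, 4069 and 429 RPM on days 4 to 14. miR-223 was listed on no day. Of this sum miR-146 made up 8349 RPM on day 8, and miR-142 was the only member listed on day 10. The summed level was lower on day 12 for epithelia (211.01 RPM on day 12, 1095 RPM on day 6), neural tissue (215 RPM on day 12, 1042 RPM on day 6), the liver miRNA miR-122 (2.19 RPM on day 12, 534 RPM on day 6) and the pancreas miRNA miR-375 (1.44 RPM on day 12, 24.0 RPM on day 6). It was higher on day 12 for white blood cells (4069 RPM on day 12, 2002 RPM on day 6), the endothelial miRNA miR-126 (23376 RPM on day 12, 6771 RPM on day 6) and heart and striated muscle (477 RPM on day 12, 344 RPM on day 6). Within heart and striated muscle, miR-133 was higher on day 12 (468 RPM, 327 RPM on day 6) and miR-206 lower (9.09 RPM, 17.7 RPM on day 6). Over the 74 known families listed on both days, 52.7% were more than 2-fold lower on day 12 and 17.6% more than 2-fold higher. The red blood cell miRNAs miR-144 and miR-451 and the smooth muscle miRNAs miR-143 and miR-145 were listed on neither day 6 nor day 12. On other days miR-144 was listed at 2.15 RPM on day 4 and 638 RPM on day 8. The part of these cell types in the levels of miR-15, miR-16 and miR-103/miR-107, and in the ratios of day 12 over day 6, was not tested.

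Of 14 other miRNAs known to act on the cell cycle, 11 were listed in at least 1 library and 7 on both day 12 and day 6. In RPM 3 of the 7 were more than 2-fold higher on day 12, 3 more than 2-fold lower and 1 between, beside 17.6% higher and 52.7% lower over the 74 families. In the share of known reads 4 were more than 2-fold higher on day 12, 0 more than 2-fold lower and 3 between, beside 29.7% higher and 35.1% lower. The part of miR-10, which held most known reads on day 6, in these counts was not tested. let-7, which lowers cyclin D and RAS in mammals, was at 25125 RPM on day 12 and 2756 RPM on day 6, a log2 ratio of 3.19 in RPM and 3.99 in the share. miR-34, induced by p53 in mammals, gave 2.41 in RPM and 3.21 in the share, and miR-26, a repressor of EZH2 and cyclins, 1.55 and 2.35. miR-19, of clusters related to miR-17-92, which promotes proliferation, gave 0.33 in RPM and 1.13 in the share. The other members of such clusters gave -1.42 (miR-20), -1.24 (miR-92) and -1.02 (miR-18) in RPM, near the median of -1.17 over all families, and -0.62, -0.44 and -0.22 in the share, where none was past 2-fold.

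The predicted targets deposited for the members came from 4 libraries. miR-103 had 117, 116, 97 and 115 target lines on days 4, 8, 10 and 14. miR-107 had 94 lines on day 10, and miR-16 had 233 on day 8 and 229 on day 14. The lists of days 6 and 12 held none for the members, and no list held any for miR-15. Each of these 4 lists covered 10 miRNAs, and each target name stood once per miRNA and library. A second tool was named beside 15 or 16 of the miR-103 lines per day, 11 of the miR-107 lines and 27 or 28 of the miR-16 lines.

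The names and the values of these target lines did not stay together between libraries. For miR-103 on days 8 and 4, 113 pairs of score and energy were shared, which is 99.1% of the distinct pairs of day 8 and 98.3% of those of day 4, and 115 lines followed in the same order, while 17 target names were shared and 5 lines agreed in name, score and energy. For miR-16 on days 14 and 8, 168 pairs of score and energy and 52 names were shared, and 0 lines agreed in all 3. PLEKHJ1, a target name of miR-103 on 3 days, stood beside scores of 147, 151 and 326 on days 4, 8 and 10. The highest score of miR-16, 761 at -75.87 kcal/mol, stood beside PLK4, a kinase of centriole duplication, on day 8 and beside LMOD3, a muscle actin nucleator, on day 14. Neither the score of a named target nor the miRNA it belongs to can therefore be established from these lists, and the names below are given only as they stand in the lines of a member.

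Cell cycle gene names stood in 1.60% of the member lines, beside 0.712% (12 of 1685) for other miRNAs of the same libraries. As the miRNA of a name cannot be established, these shares do not compare the targets of the miRNAs. Some genes stood in several lines, and the gene list was chosen with earlier results of these data known. Of 60 cell cycle genes looked for, 9 stood as a name in 16 of the 1001 member lines. These were BUB1B, a kinase of the spindle checkpoint, CDK6, a kinase of the G1 phase, CDK8, MCL1, a survival factor of the BCL2 family, PLK1, a mitotic kinase, PLK4, RB1, the retinoblastoma protein that holds back E2F, SMC4, within which miR-15b and miR-16-2 lie, and STAG2, a cohesin subunit. BCL2 and the cyclins of the list stood in no member line. BUB1B in the miR-103 lines of days 4 and 10 was the only 1 of the 9 that stood in the lines of the same miRNA in more than 1 library. Over all names, 7 of the 373 of miR-103 stood on 3 days and 58 on 2, and 52 of the 410 of miR-16 on both days.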

How the data were processed

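Small RNA of 6 libraries, 1 per stage, was analysed from the deposited lists. The authors mapped unique reads to the chicken genome (Gallus gallus v.2.1) with BLAT, searched miRBase and folded the hairpins, and TopHat and Cufflinks stand in the submitters' processing notes without a version. The authors deposited read counts per mature sequence and locus and RPM values, each of which was the count times 1 constant per library. Hairpin energies, hairpin G and C content in percent, and the target score were deposited by the authors too. Hairpin positions in these lists run 1 base below mature positions for 16 of 19 pairs of a member sequence and a hairpin, and mature positions are printed as deposited. Lines without an abundance were not used here, and authors' p-values were not used.

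A family's level is the summed RPM of its distinct mature sequences. Levels carry exact Poisson intervals, and shares and ratios Clopper-Pearson intervals at 95%, computed with Python 3.11.15, numpy 2.4.6 and scipy 1.17.1. The interval of the ratios was tested on simulated independent Poisson counts with equal totals. This checks its computation and not how well it suits these reads. Past 2-fold means a ratio above 2 or below 0.5. Named were all members, the 3 families nearest in course to each, and fixed lists of miRNAs and target genes. LMOD3 and PLEKHJ1 come from the 10 repeated targets ranked by number of libraries and then by highest score. Members and lists were chosen with earlier results of these data known. Alternatives covered the scale, the lists and lengths counted, the overlap, the loci and a minimum of 10 reads.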

Additional observations from a re-analysis of the deposited data

How the results depend on the processing

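No paired analysis was possible because each stage had 1 library. The day 12 over day 6 log2 ratios were -0.31 for miR-103/miR-107, 0.68 for miR-15 and 0.60 for miR-16 in the share of known reads, and -1.22, -0.23 and -0.32 scaled to the clean reads. From 22 nt sequences alone they were -1.24 for miR-103/miR-107, which is then miR-107, and -1.38 for miR-15, which leaves out the 21 nt forms, and the number of stages that list miR-103/miR-107 was 3. From the highest single sequence miR-15 gave -0.49, as miR-15a is compared with miR-15c. The other 28 alternatives of the main results stayed within the counting interval or within 1.5 times the main count, among them miR-16 at 3 stages from known lines only or at 22 nt, and 64.9% and 68.1% of families past 2-fold in the share of known reads and with at least 10 reads on both days. No ratio of day 14 over day 4 at 22 nt could be had, since no member was listed at 22 nt on day 4. Day 14, with 228290 reads, lists nothing under 26.3 RPM, so a lower member was not detectable there. Days 8 and 10 hold mainly 1 length, so a form of another length could go unlisted there. On day 10 the known list held mainly 21 nt sequences, and the lowest abundance listed was 2 reads. miR-15a and miR-15b, both 21 nt on day 12, were not listed on day 10, and why was not tested. Some lines of the day 10 and day 12 lists were empty as given. Variation between embryos is unknown.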

Other observations

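The study's list of PCR sequences gives, as the mature sequence for miR-103, a 25 nt RNA that a match of letters placed in the hairpin of miR-103-1 and in none of the other 7 member hairpins. It holds the 23 nt opposite-arm sequence of that locus, with U for T, and is not found in the listed mature sequence.
miR-103 PCR sequence: ucggcuucuuuacagugcugccuug
The opposite arm of miR-103-1 had between 1 and 3 reads in the 4 libraries that listed it, beside 2540 to 28248 reads of the mature sequence. The PCR values were not analysed here.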
